A study of Homo sapiens with 21 samples.

Results

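Human cells labelled HepG2 were kept for 24 h with 100 µM or with 10 µM coumarin, and the last 10-fold step of a dose series is described here across all genes. Coumarin is a sweet-smelling benzopyrone of plants. It was dissolved in DMEM and diluted in DMEM without serum, and all cells were moved into that serum-free medium when exposure began, so both doses share the loss of serum. The 6 libraries, 3 at 100 µM and 3 at 10 µM, were chosen by their labels out of 21 in the series, and the labels call the 3 replicates of a dose biological. The 12 libraries at 0.001, 0.01, 0.1 and 1 µM were used for the spread and as the lower doses against which 10 µM was set. The 3 untreated libraries entered no comparison.

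Gene counts totalled 28912851, 29389939 and 38448896 in the 100 µM libraries, against 27437470, 26984563 and 43375429 in the 10 µM libraries. A count of 0 was given an approximate upper limit of 3 counts. At these depths that limit comes to 0.078 to 0.104 CPM at 100 µM and 0.0692 to 0.111 CPM at 10 µM, which covers counting error only. CPM are counts scaled to the total of their library. This limit uses the raw total, and gene levels use the scaled total described under processing. Transcripts of the mitochondrial genome took 6.74% to 7.15% of counts at 100 µM and 6.70% to 6.90% at 10 µM. In a principal component analysis of the 18 treated libraries the first component, with 19.8% of the variance, placed the 3 libraries at 100 µM at 29.8 to 31.9, those at 10 µM at -0.27 to 0.3 and the lower doses at -9.4 to -5.89. The labelled cell type was checked against 22 hepatocyte markers. AHSG, ALB, APOC3, FGB, HP, RBP4, SERPINA1 and TTR, 8 of the 22, had no count in any of the 6 libraries. Without CPS1, the urea cycle enzyme that made up nearly all of the sum, the markers added up to 1.69 to 2.83 CPM at 100 µM and 2.01 to 2.67 CPM at 10 µM. The cells are therefore called by their label only.

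Cells that run short of an amino acid, or meet several other stresses, phosphorylate the initiation factor eIF2. General translation then slows while the mRNA of the transcription factor ATF4 is translated more. ATF4 pairs with C/EBP proteins on amino acid response elements and induces enzymes of amino acid synthesis, amino acid carriers, tRNA synthetases and feedback genes such as TRIB3 and CHAC1. In liver and other tissues this integrated stress response is also known for secreted factors, FGF21 and GDF15 among them. Retinoic acid acts through nuclear receptors and induces its own degradation through CYP26 enzymes. The aryl hydrocarbon receptor, AHR, induces CYP1 enzymes and its own repressor AHRR.

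Between 100 and 10 µM, many genes of the ATF4 and amino acid response rose, and some genes of retinoic acid metabolism, cholesterol synthesis, mitosis and the AHR pathway fell. Of 16522 genes tested, 3074 (18.6%) passed an adjusted p of 0.05 in edgeR's quasi-likelihood test, 1387 (8.39%) higher and 1687 (10.2%) lower at 100 µM. Most differences were small, with a median size of 0.241 on the log2 scale among the genes that passed. At least a 2-fold difference was reached by 152, of which 51 were higher and 101 lower. Of these 152, 58 averaged 1 CPM or more over the 6 libraries, 26 higher and 32 lower. The 3 values of one dose did not overlap those of the other in 2931 (95.3%) of the genes that passed, against 5341 (32.3%) of all genes tested. The median over all genes tested was 0.000686, a value that the scaling of the libraries sets near 0. Counts of list members given below stand against the 8.39% of all genes that were higher and the 10.2% that were lower.

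Fewer genes passed at the step below. Setting 10 µM against the mean of 0.001 to 1 µM, 479 genes (2.9%) passed, 117 (0.708%) higher and 362 (2.19%) lower at 10 µM, and 6 of them differed by at least 2-fold. A gene was placed with the last step when it passed between 100 and 10 µM, the difference between the 2 steps itself passed with the same sign, and the 95% interval of the difference between 10 µM and the lower doses lay within 0.32 of 0 on the log2 scale. The difference between the steps passed in 817 genes (4.94%) whatever their sign. These last-step genes numbered 688 (4.16% of all tested), 291 (1.76%) higher and 397 (2.4%) lower at 100 µM. Another 194 genes (1.17%) passed at both steps in the same direction, 41 higher and 153 lower, and 45 of them also met the rule for the last step. Passing at both steps with opposite signs, 45 genes (0.272%) turned at 10 µM, and 32 of them also met the rule for the last step. A last-step gene can therefore have passed at 10 µM too, by a bounded amount. The 10 µM libraries enter the 2 steps with opposite signs, so chance in them also bears on the last-step class. The remaining 2224 genes that passed between 100 and 10 µM met none of these definitions, so for them a change at the last step alone was not shown. Fewer genes were placed when 10 µM replicate 1 was left out, which gave 325 last-step genes, 74 moving the same way and 10 turning.

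**Figure D1:**
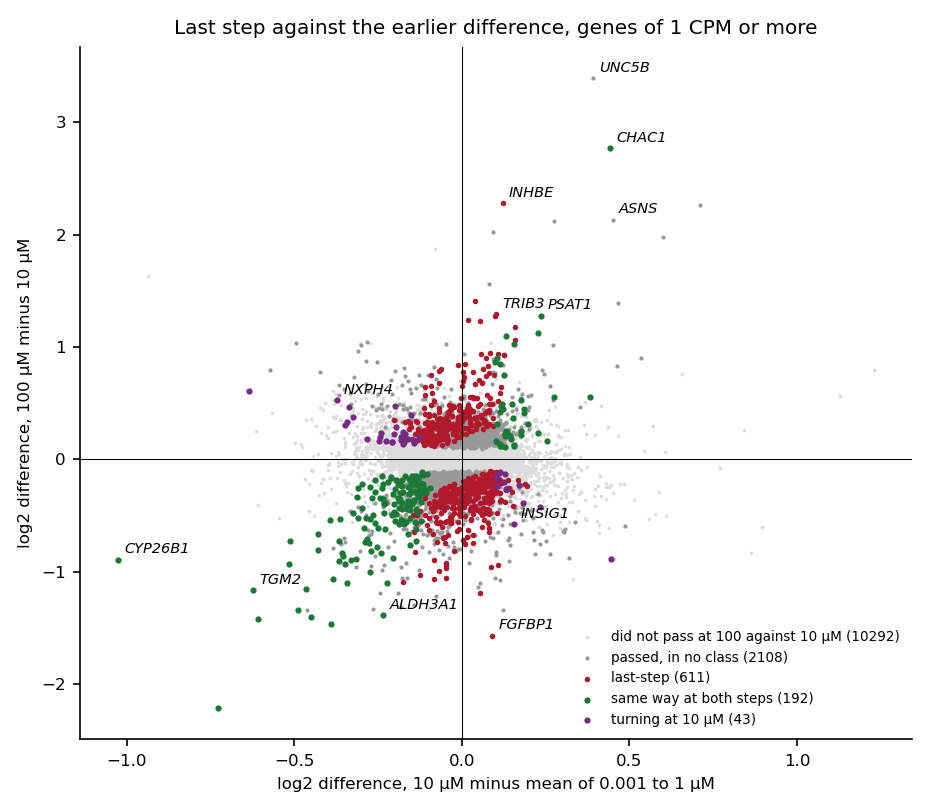
Each point is 1 of 13246 tested genes averaging 1 CPM or more, with the log2 difference of 10 µM minus the mean of 0.001 to 1 µM on the horizontal axis and that of 100 µM minus 10 µM on the vertical axis, coloured by class (last-step genes that also moved the same way or turned take the colour of those classes). The rule for the last step itself holds those genes in a narrow vertical band near 0 on the horizontal axis. Genes moving the same way at both steps sit mostly at the lower left, 153 of the 194 among all genes tested being lower at both.

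The ATF4 and amino acid response list had 39 tested members, of which 32 rose and 1 fell, beside 8.39% and 10.2% of all genes tested. The median log2 difference over its tested members was 0.75, and 12 rose by at least 2-fold. Of the 39, 27 were last-step genes and 7 had risen at both steps. At 10 µM against the lower doses the list's median was 0.08, with 7 members higher and 1 lower. The members that did not pass were ALDH18A1, CBS, VLDLR, SLC38A2, ALDH1L2 and PPP1R15A, and KLHL24 was the one that fell (log2 difference -0.29 ± 0.06, SE). These 7 are named after their values were seen.

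**Figure D2:**
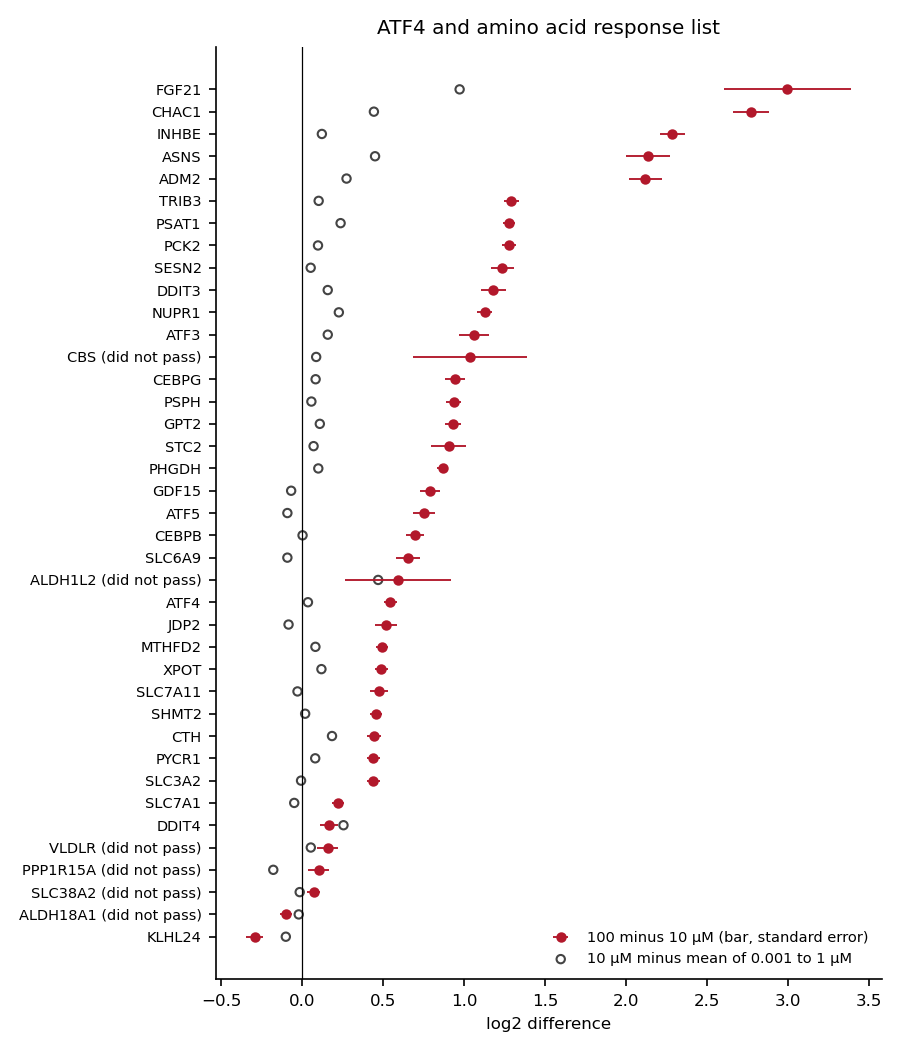
Log2 differences of the 39 tested members of the ATF4 and amino acid response list, with 100 minus 10 µM as filled points with standard errors and 10 µM minus the mean of 0.001 to 1 µM as open points. Most open points lie close to 0, and FGF21, CHAC1, INHBE, ASNS and ADM2 lie above 2 at the last step.

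Among the transcription factors, ATF4 itself had 574, 568 and 567 CPM at 100 µM, against 401, 374 and 397 CPM at 10 µM. The doses did not overlap, and ATF4 rose 1.46-fold (log2 difference 0.55 ± 0.04 SE, adjusted p = 1.82e-13). DDIT3, which encodes the stress factor CHOP, had 25.1, 22.3 and 23.9 CPM at 100 µM, against 11.2, 10.6 and 9.81 CPM at 10 µM. It rose 2.27-fold (adjusted p = 2.11e-14). ATF3, an early stress factor that also belongs to the immediate early list, reached 14.2, 15.9 and 15.5 CPM at 100 µM, against 5.80, 8.14 and 7.79 CPM at 10 µM, a 2.09-fold rise (adjusted p = 3.32e-11). All 3 were last-step genes, with differences of 0.04, 0.16 and 0.16 (log2) between 10 µM and the lower doses. CHAC1, which degrades glutathione and lies at chr15:40952962-40956519 (+ strand, GRCh38), had 18.7, 19.6 and 19.3 CPM at 100 µM, against 2.39, 3.14 and 2.87 CPM at 10 µM. Its 6.82-fold rise (log2 2.77 ± 0.11 SE, adjusted p = 3.58e-20) followed a smaller one at 10 µM, of 0.44 (adjusted p = 0.0184) over the lower doses, so CHAC1 moved at both steps. The pseudokinase TRIB3, a feedback inhibitor of ATF4, stood at 158, 158 and 154 CPM at 100 µM, against 63.6, 62.6 and 65.8 CPM at 10 µM. SESN2, which restrains mTORC1, averaged 31.6 ± 1.16 CPM at 100 µM and 13.4 ± 0.46 CPM at 10 µM (SD, n = 3 each). NUPR1, a small chromatin protein of stressed cells, averaged 110 ± 2.14 CPM at 100 µM and 50.4 ± 1.86 CPM at 10 µM, after a first rise of 0.23 (log2) at 10 µM.

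Secreted factors of the list rose as well. INHBE, a subunit of activin E, had 31.7, 30.3 and 32.8 CPM at 100 µM, against 6.20, 6.83 and 6.46 CPM at 10 µM. It rose 4.87-fold (adjusted p = 3.24e-22), while its difference between 10 µM and the lower doses was 0.12 (95% interval -0.02 to 0.27). FGF21, a metabolic hormone, had 45, 36 and 45 counts at 100 µM, against 5, 1 and 10 counts at 10 µM. This log2 difference of 3.00 ± 0.39 (SE, adjusted p = 4.5e-07) rests on those few counts, and the interval of its difference at 10 µM, -0.04 to 1.98, was too wide to place it in a class. The peptide hormone ADM2 averaged 15.3 ± 1.22 CPM at 100 µM and 3.53 ± 0.304 CPM at 10 µM. GDF15, a stress cytokine that acts on the brain stem, averaged 63.8 ± 1.48 CPM at 100 µM and 36.8 ± 2.04 CPM at 10 µM, and it was a last-step gene.

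Some enzymes of amino acid synthesis rose. PHGDH, PSAT1, PSPH and MTHFD2, given below, are also on the ATF4 list and were already counted there. Of 13 tested genes of serine, glycine and one-carbon synthesis, 6 rose and 1 fell, with a median log2 difference of 0.19. The 3 steps from glycolysis to serine all rose. PHGDH, the first of them, had 468, 465 and 464 CPM at 100 µM, against 249, 251 and 265 CPM at 10 µM. PSAT1, the second, at chr9:78297143-78330093 (+ strand), had 474, 491 and 496 CPM at 100 µM, against 193, 209 and 201 CPM at 10 µM, a 2.43-fold rise (adjusted p = 9.23e-24). PSPH, the third, averaged 132 ± 6.24 CPM at 100 µM and 69 ± 2.37 CPM at 10 µM. MTHFD2, a mitochondrial folate enzyme, rose 1.41-fold. PSAT1 and PHGDH had also passed at 10 µM over the lower doses, by 0.24 and 0.10 (log2), yet both met the rule for the last step since those differences were bounded within 0.32.

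Among 19 tested enzymes of asparagine, proline, glutamate and transsulfuration, 8 rose and 1 fell (median 0.13). Of those that rose, PCK2, GPT2, ASNS, PYCR1 and CTH are also on the ATF4 list. ASNS, asparagine synthetase, had 10.8, 11.6 and 9.89 CPM at 100 µM, against 2.39, 2.48 and 2.46 CPM at 10 µM. It rose 4.39-fold (adjusted p = 1.77e-14). Its difference at 10 µM was 0.45, with an adjusted p of 0.0502 and an interval of 0.19 to 0.71, so it belongs to no class although the difference between the steps passed (adjusted p = 1.43e-05). PCK2, the mitochondrial PEP carboxykinase, averaged 148 ± 1.48 CPM at 100 µM and 61.3 ± 2.1 CPM at 10 µM. ASS1, argininosuccinate synthase, averaged 425 ± 11.8 CPM at 100 µM and 208 ± 9.12 CPM at 10 µM, and GPT2, a mitochondrial alanine aminotransferase, 90.6 ± 0.48 CPM at 100 µM and 47.3 ± 3.47 CPM at 10 µM. The single fall was in GLUL, glutamine synthetase, by 0.55 on the log2 scale, a gene named after its value was seen.

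Of 22 tested amino acid transporters 10 rose and 2 fell, and 8 were last-step genes. Of those that rose, SLC3A2, SLC7A11, SLC6A9 and SLC7A1 are also on the ATF4 list. SLC1A5, a glutamine carrier, had 244, 234 and 238 CPM at 100 µM, against 132, 141 and 138 CPM at 10 µM. The alanine and serine carrier SLC1A4 rose 1.72-fold and the glutamate carrier SLC1A3 rose 1.56-fold. SLC7A5, a carrier of large neutral amino acids, averaged 1908 ± 28.4 CPM at 100 µM and 1475 ± 91.6 CPM at 10 µM. Its heavy chain SLC3A2 averaged 773 ± 2.96 CPM at 100 µM and 570 ± 25.8 CPM at 10 µM. SLC7A11, the cystine carrier that shares this chain, rose 1.39-fold, and the antisense transcript SLC7A11-AS1 was 1.95-fold higher. The strand setting of the counting is not given, so reads of the sense and antisense transcripts cannot be told apart.

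Cytosolic tRNA synthetases, which charge tRNAs with amino acids, rose in 14 of 20 tested cases and fell in none, with a median log2 difference of 0.33, and 11 were last-step genes. WARS, for tryptophan, had 378, 370 and 369 CPM at 100 µM, against 170, 175 and 178 CPM at 10 µM. GARS, for glycine, rose 1.87-fold, SARS, for serine, 1.80-fold and YARS, for tyrosine, 1.67-fold. WARS, GARS and SARS had passed at 10 µM too, by 0.13, 0.11 and 0.11 (log2), and 8 of the 20 moved the same way at both steps. Of 17 tested mitochondrial synthetases, 2 rose (MARS2 and NARS2) and 2 fell (EARS2 and IARS2), with a median of 0.007. The call for EARS2 was lost in 4 of the fits that left out 1 library.

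Promoters are shown for the 4 members with the largest rises among 6 that rose and hold the 8-letter core of an amino acid response element. The other two, SLC3A2 and SLC7A1, rose by 0.44 and 0.22 (log2) and hold it after the start, at positions 38 and 8. The windows are 300 bases of RefSeq promoters (GRCh38.p14), from 250 bases before the annotated start to 50 from it on, read 5′ to 3′ on the gene's strand. They are FGF21 at chr19:48755274-48755573 (+), CHAC1 at chr15:40953221-40953520 (+), ASNS at chr7:97872359-97872658 (-) and ATF3 at chr1:212565157-212565456 (+). Capitals mark the match to TGATGNAA on either strand.
FGF21: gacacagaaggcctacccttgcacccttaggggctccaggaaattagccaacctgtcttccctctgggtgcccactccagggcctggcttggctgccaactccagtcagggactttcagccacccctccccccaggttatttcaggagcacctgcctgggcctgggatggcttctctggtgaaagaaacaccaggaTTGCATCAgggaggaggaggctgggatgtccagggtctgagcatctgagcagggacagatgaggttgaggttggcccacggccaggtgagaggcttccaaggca
CHAC1: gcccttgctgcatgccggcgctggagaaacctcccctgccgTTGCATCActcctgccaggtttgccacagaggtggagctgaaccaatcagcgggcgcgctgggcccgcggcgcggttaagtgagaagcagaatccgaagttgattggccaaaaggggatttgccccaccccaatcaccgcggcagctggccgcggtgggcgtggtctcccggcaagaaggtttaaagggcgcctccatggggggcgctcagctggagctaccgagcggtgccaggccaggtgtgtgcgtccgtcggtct
ASNS: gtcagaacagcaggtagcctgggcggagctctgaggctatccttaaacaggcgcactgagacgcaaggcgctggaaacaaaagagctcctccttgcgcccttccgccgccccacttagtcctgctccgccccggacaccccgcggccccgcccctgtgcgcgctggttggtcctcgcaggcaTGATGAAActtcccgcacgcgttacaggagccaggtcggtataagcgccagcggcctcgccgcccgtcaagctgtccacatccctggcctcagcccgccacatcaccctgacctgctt
ATF3: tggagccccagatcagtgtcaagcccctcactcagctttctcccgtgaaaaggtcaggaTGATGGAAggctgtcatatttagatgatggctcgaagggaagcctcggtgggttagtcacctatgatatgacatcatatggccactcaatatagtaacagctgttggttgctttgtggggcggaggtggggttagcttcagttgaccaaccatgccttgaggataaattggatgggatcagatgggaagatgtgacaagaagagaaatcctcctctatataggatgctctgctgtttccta
The match began at position -54 from the RefSeq start in FGF21, at -209 in CHAC1, at -68 in ASNS and at -191 in ATF3, and it lay on the reverse strand in FGF21 and CHAC1. TGATGNAA was found on either strand in 1003 of all 27305 windows (3.67%) and in 180 of the 11194 windows of tested genes (1.61%). Genes that rose held it in 39 of 1099 windows (3.55%), genes that fell in 18 of 1274 (1.41%). Among genes at least 2-fold higher it was in 8 of 33 windows (24.2%), and among genes at least 2-fold lower in 0 of 48. Of the ATF4 list, 6 of 31 tested members with a window held it. These shares describe letters, not binding.

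Genes outside the ATF4 list were also among the largest rises. UNC5B, a netrin receptor at chr10:71212570-71302864 (+), had 73, 82 and 129 counts at 100 µM, against 11, 2 and 14 counts at 10 µM, or 2.88 ± 0.421 CPM at 100 µM and 0.265 ± 0.17 CPM at 10 µM. It rose 10.5-fold (log2 3.39 ± 0.32 SE, adjusted p = 3.08e-10). DDR2, a collagen receptor kinase, had 10.2, 10.7 and 9.50 CPM at 100 µM, against 2.65, 2.78 and 2.16 CPM at 10 µM. FUT1, a fucosyltransferase of blood group H antigen, rose 4.81-fold and BEX2, a small brain-expressed protein, 3.94-fold, both below 1 CPM at 10 µM. ULBP1, a ligand for the natural killer receptor NKG2D, averaged 1.57 ± 0.131 CPM at 100 µM and 0.526 ± 0.081 CPM at 10 µM. FAM129A, also called Niban, had 111, 118 and 114 CPM at 100 µM, against 47.8, 51.0 and 46.8 CPM at 10 µM, and its difference at 10 µM was 0.02 (95% interval -0.06 to 0.09). GRB10, an adaptor that restrains the insulin receptor, averaged 14.4 ± 0.257 CPM at 100 µM and 5.41 ± 0.208 CPM at 10 µM, and was likewise a last-step gene. The kinesin KIF21B averaged 2.16 ± 0.328 CPM at 100 µM and 0.813 ± 0.107 CPM at 10 µM. Of transcripts that are not protein-coding, ATP1B3-AS1 rose 2.07-fold and AC138969.1 2.05-fold, both under 3.1 CPM in all 6 libraries, and ATP1B3-AS1 has the same limit of strand as above.

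**Figure D3:**
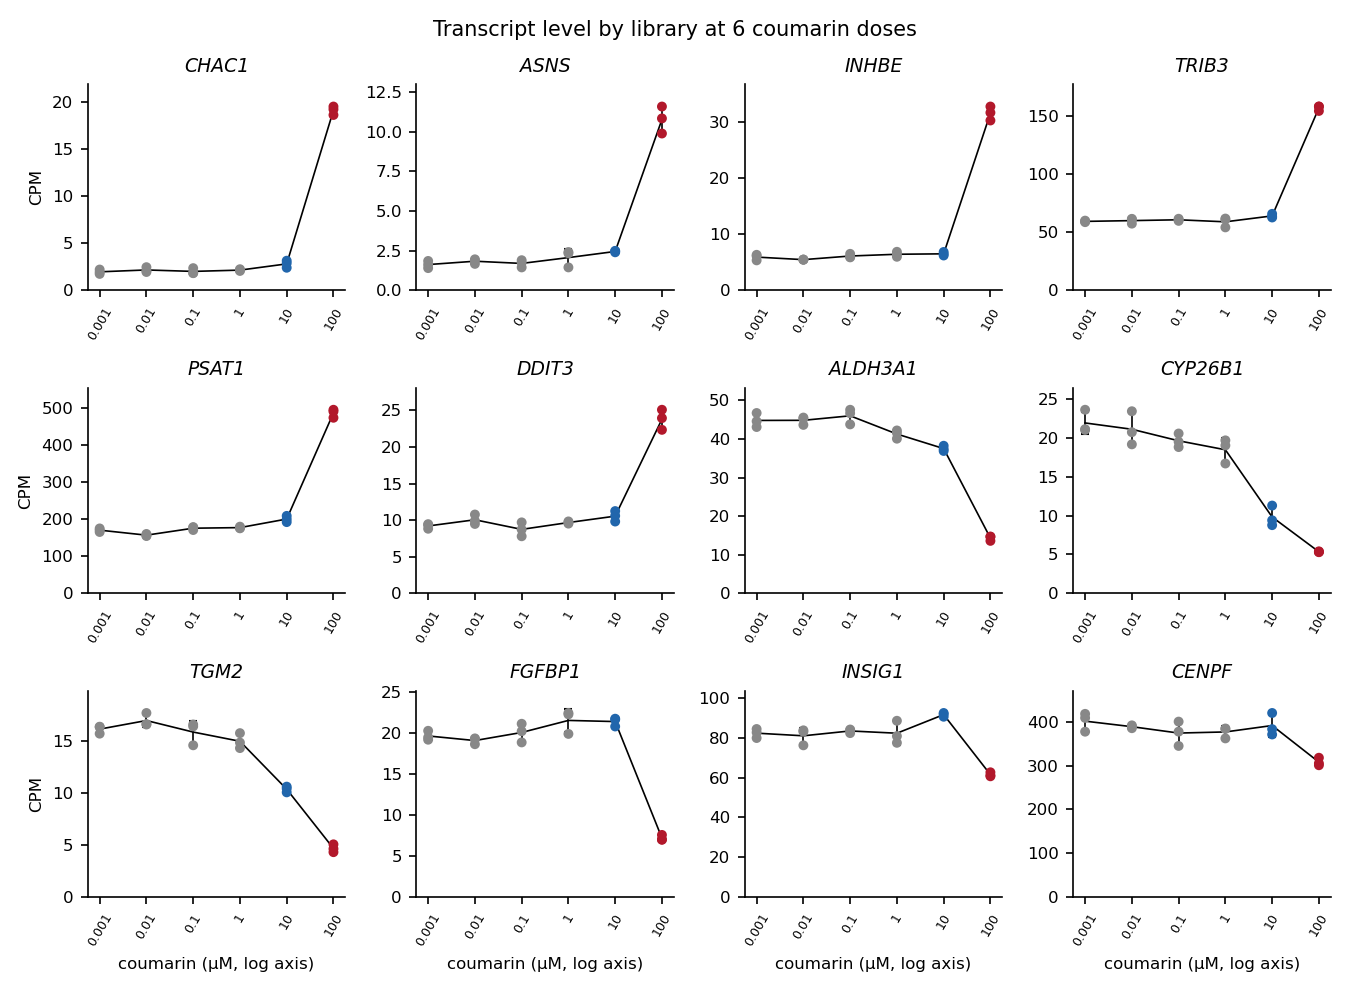
CPM of 12 genes in every treated library, with the coumarin dose in µM on a log axis and 1 point per library, from 0 on the vertical axis. CHAC1, INHBE, ASNS, DDIT3, TRIB3 and PSAT1 stand apart at 100 µM, and FGFBP1, ALDH3A1, CYP26B1 and TGM2 are lowest there. ALDH3A1, CYP26B1 and TGM2 are already lower at 10 µM than at the lower doses, ALDH3A1 by less.

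Among genes of protein synthesis, those that passed differed by small amounts. Of 43 tested cytosolic ribosomal protein genes 22 rose and none fell, with a median of 0.15, and 2 were last-step genes. RPLP2, of the ribosomal stalk, averaged 998 ± 40 CPM at 100 µM and 795 ± 31.1 CPM at 10 µM. Many ribosomal protein genes have processed pseudogenes of near-identical sequence, so their counts are uncertain. Of 25 ribosome biogenesis genes 16 rose and none fell (median 0.14), led by the processing factor RRP12 (1.31-fold), with the pseudouridine synthase DKC1 at 193 ± 3.61 CPM at 100 µM and 154 ± 1.95 CPM at 10 µM. Of 28 translation factors 9 rose and 1 fell. EIF4EBP1, the inhibitor of the cap-binding factor, had 220, 214 and 216 CPM at 100 µM, against 139, 125 and 145 CPM at 10 µM. EIF1 and EIF2S2, the beta subunit of eIF2, rose 1.40-fold and 1.39-fold. Among 23 tested genes of purine and pyrimidine synthesis 5 rose, CTPS1, which makes CTP, by 0.32 (log2), and none fell.

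Immediate early transcription factors, which respond within minutes to growth and stress signals, rose in 12 of 20 tested cases and fell in 1 (median 0.29). JUN had 30.9, 27.4 and 30.1 CPM at 100 µM, against 17.0, 16.2 and 18.7 CPM at 10 µM, and KLF4 averaged 12.6 ± 0.55 CPM at 100 µM and 7.19 ± 0.507 CPM at 10 µM. MYC did not pass, with 484, 489 and 476 CPM at 100 µM, against 458, 437 and 473 CPM at 10 µM (adjusted p = 0.127). Of 21 p53 targets 7 rose and none fell, but SESN2 and GDF15 among them are also on the ATF4 list. CDKN1A, the p21 inhibitor of cyclin-dependent kinases, had 90.6, 88.1 and 87.7 CPM at 100 µM, against 62.9, 63.5 and 70.5 CPM at 10 µM. In the BCL2 family, 3 of 16 rose and 3 fell. PMAIP1, which encodes the pro-apoptotic NOXA, rose 1.78-fold, and BMF, another pro-apoptotic member, averaged 3.14 ± 0.0644 CPM at 100 µM and 6.75 ± 0.392 CPM at 10 µM.

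Chaperones and other unfolded protein response genes of the endoplasmic reticulum moved in both directions. Among the 25 members of that list that were tested, 4 rose and 7 fell, with a median of -0.04. HERPUD1, a membrane protein of ER-associated degradation, rose 1.46-fold and the transcription factor XBP1 1.24-fold. The chaperone HSP90B1 had 1122, 1063 and 1086 CPM at 100 µM, against 1471, 1457 and 1367 CPM at 10 µM, and the disulfide isomerase PDIA4 averaged 181 ± 4.56 CPM at 100 µM and 228 ± 10.7 CPM at 10 µM. Both falls were in last-step genes. Among 16 heat shock proteins 4 rose and 1 fell. HSPA9, the mitochondrial HSP70, rose 1.34-fold, HSPA1B 1.36-fold (its sequence is nearly that of HSPA1A, so the split is uncertain), and the cytosolic chaperone HSP90AA1 fell by 0.30 on the log2 scale.

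Among the falls at 1 CPM or more, FGFBP1, a carrier of fibroblast growth factors at chr4:15935569-15938740 (- strand), was the largest among protein-coding genes. It had 6.96, 6.99 and 7.55 CPM at 100 µM, against 21.7, 21.8 and 20.8 CPM at 10 µM, and fell 2.97-fold (log2 -1.57 ± 0.07 SE, adjusted p = 1.23e-18). At 10 µM it differed from the lower doses by 0.09 (95% interval -0.01 to 0.19), which made it a last-step gene. VSIR, the immune checkpoint protein VISTA, averaged 3.7 ± 0.285 CPM at 100 µM and 10.2 ± 2.06 CPM at 10 µM, and the bradykinin receptor BDKRB2 1.15 ± 0.107 CPM at 100 µM and 3.08 ± 0.235 CPM at 10 µM. TNFSF15, a cytokine of the TNF family, averaged 4.62 ± 0.26 CPM at 100 µM and 11.7 ± 0.754 CPM at 10 µM. SCNN1A, a subunit of the epithelial sodium channel, averaged 12.4 ± 0.927 CPM at 100 µM and 27.7 ± 0.6 CPM at 10 µM. VSIR, BDKRB2, TNFSF15 and SCNN1A had all fallen at 10 µM as well, by 0.39 to 0.61 (log2). CAVIN2, HRASLS2, ITGB6, CRB2, PSG4, OLFML2B and PDZK1 were further large falls, at 2.28-fold to 2.54-fold and mostly under 4 CPM, and PSG4 shares sequence with its family, so its counts are uncertain. TINAGL1, a secreted basement membrane protein and a last-step gene, had 32.4, 35.7 and 36.1 CPM at 100 µM, against 73.6, 70.3 and 74.6 CPM at 10 µM. SLC12A3, a sodium chloride cotransporter, averaged 151 ± 4.22 CPM at 100 µM and 250 ± 5.5 CPM at 10 µM. The placental alkaline phosphatase ALPP, whose close paralogs can share reads, averaged 554 ± 3.89 CPM at 100 µM and 1021 ± 49.5 CPM at 10 µM. Of transcripts that are not protein-coding, AC254633.1 fell 4.63-fold, PKD1L2 2.54-fold and AC089983.1 2.29-fold, each under 4 CPM. Whether fewer cells of a type or less RNA per cell lies behind a lower level cannot be told apart in bulk RNA.

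Of 14 tested genes of retinoic acid metabolism and its targets 8 fell and none rose, with a median of -0.53, and at 10 µM against the lower doses 7 were already lower, with a median of -0.33. Moving the same way at both steps were 6 members, and 1 was a last-step gene. CYP26B1, which degrades retinoic acid and lies at chr2:72129238-72148038 (-), had 5.40, 5.34 and 5.29 CPM at 100 µM, against 9.39, 8.77 and 11.3 CPM at 10 µM. It fell 1.86-fold at the last step (adjusted p = 2.17e-08) and by 1.02 (log2) at 10 µM. The difference between those steps had an adjusted p of 0.744. CYP26A1, of the same function, had 0.277, 0.406 and 0.389 CPM at 100 µM, against 0.942, 1.24 and 0.988 CPM at 10 µM. STRA6, the receptor for retinol-binding protein, had 34.6, 32.6 and 33.6 CPM at 100 µM, against 65.7, 59.3 and 67.0 CPM at 10 µM, and DHRS3, which reduces retinal, averaged 46.2 ± 2.18 CPM at 100 µM and 82 ± 5.11 CPM at 10 µM. TGM2, a transglutaminase induced by retinoic acid, fell 2.24-fold at the last step and by 0.62 (log2) at 10 µM. For DHRS3, STRA6 and TGM2 the last step was the larger one, with adjusted p of 0.000162, 0.00171 and 0.0084 for the difference between steps. A direct repeat of AGNTCA spaced by 5 bases, searched on both strands, was in 0 of the windows of genes that rose or fell and in 23 of all 27305, which says nothing of retinoid receptors.

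The AHR list had 11 tested members, of which 6 fell and 1 rose, and 6 of these 7 were last-step genes. ALDH3A1 and AHRR had also passed lower at 10 µM against the lower doses, with log2 differences of -0.23 and -0.12. Both met the rule for the last step since those differences were bounded. ALDH3A1, an aldehyde dehydrogenase at chr17:19737984-19748943 (-), had 13.6, 14.7 and 14.7 CPM at 100 µM, against 37.4, 36.9 and 38.2 CPM at 10 µM, and fell 2.62-fold (adjusted p = 3.58e-20). AHRR had 126, 137 and 140 CPM at 100 µM, against 192, 199 and 200 CPM at 10 µM, and TIPARP, an ADP-ribosyltransferase that also dampens AHR, averaged 40.9 ± 2.63 CPM at 100 µM and 56.4 ± 1.46 CPM at 10 µM. CYP1B1 averaged 2.69 ± 0.551 CPM at 100 µM and 4.93 ± 0.431 CPM at 10 µM. CYP1A1 was measured on few reads, with 12, 10 and 15 counts at 100 µM, against 33, 16 and 34 counts at 10 µM (adjusted p = 0.00639), and this call was lost without 10 µM replicate 1, where the log2 difference was -0.86 in place of -1.14. AHR itself did not pass, at 13.5, 13.2 and 12.3 CPM at 100 µM, against 14.9, 13.9 and 12.8 CPM at 10 µM (adjusted p = 0.444). The member that rose, SLC7A5, is also on the list of transporters. The AHR core GCGTG, on either strand, was in 45.7% of windows of genes that fell, 57.1% of those that rose and 50.6% of those tested.

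CYP2A6, which hydroxylates coumarin in human liver, had no count in the 100 µM libraries and 4, 1 and 1 counts in the 10 µM libraries. CYP3A4, the main drug-metabolising P450 of liver, had no count in the 6 libraries. Neither was tested. Of 13 other P450 genes 1 rose and 3 fell. CYP24A1, which degrades vitamin D, averaged 8.24 ± 0.466 CPM at 100 µM and 17.5 ± 1.41 CPM at 10 µM, whereas CYP27B1, which activates it, averaged 4.12 ± 0.449 CPM at 100 µM and 2.79 ± 0.105 CPM at 10 µM. CYP2S1 and CYP39A1 fell 1.38-fold and 1.44-fold. Of 21 conjugation enzymes 2 rose and 4 fell, among them the sulfotransferase SULT1A1 (1.23-fold lower, with near-identical paralogs), and of 8 ABC drug transporters 3 fell, ABCC3 by 0.35, ABCG2 by 0.39 and ABCC2 by 0.11 (log2). The calls for ABCC2 and ABCG2 were lost in fits that left out 1 library.

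Of 25 tested NRF2 targets, 2 rose and 10 fell. The falls were led by the aldo-keto reductases AKR1C1, with 220, 211 and 214 CPM at 100 µM, against 364, 339 and 338 CPM at 10 µM, AKR1C3 (1.57-fold lower) and AKR1C2 (1.47-fold lower). These 3 genes share long stretches of sequence, so the split of reads between them is uncertain. All 3 were last-step genes. The metallothioneins MT2A and MT1E, which bind zinc and copper and also share sequence, fell 1.34-fold each, 2 of 6 tested on their list. Of 19 autophagy and lysosome genes 2 rose and 5 fell, GABARAPL1, of autophagosome membranes, by 0.34 (log2).

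**Figure D4:**
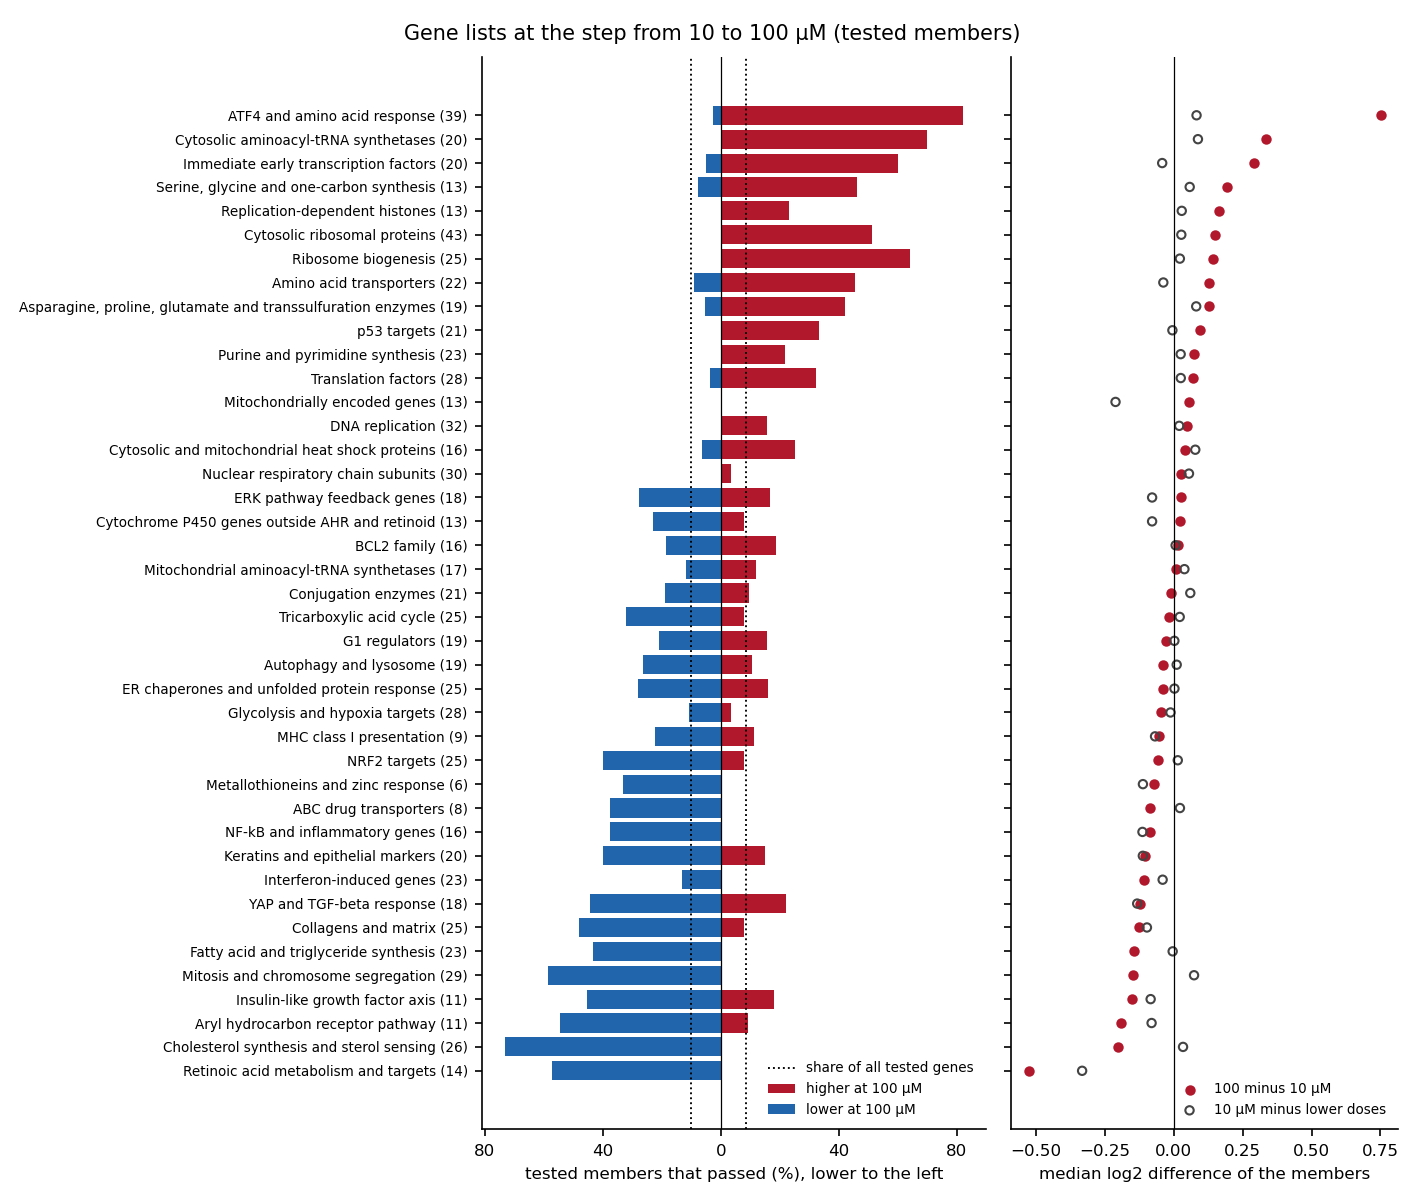
Left, the percentage of tested members of each list that passed between 100 and 10 µM, higher to the right and lower to the left, with dotted lines at the shares of all tested genes (8.39% and 10.2%); right, the median log2 difference of each list at the last step (filled) and at 10 µM (open). The ATF4 list has the highest median at the last step, 0.75, and the retinoic acid list the lowest, -0.53.

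Cholesterol synthesis and sterol sensing fell in 19 of 26 tested genes and rose in none, with a median of -0.20 and 13 last-step genes. At 10 µM against the lower doses 3 members were higher and none lower (median 0.03). INSIG1, which retains the sterol sensor in the endoplasmic reticulum, had 60.7, 62.7 and 61.2 CPM at 100 µM, against 92.0, 92.6 and 90.7 CPM at 10 µM, a 1.49-fold fall (adjusted p = 5.4e-12). IDI1, an isomerase of the mevalonate pathway, had 58.2, 57.9 and 58.1 CPM at 100 µM, against 78.6, 77.6 and 72.6 CPM at 10 µM. FDFT1, squalene synthase, fell 1.30-fold. Of 23 genes of fatty acid and triglyceride synthesis 10 fell and none rose (median -0.15), LPIN1, a phosphatidate phosphatase, by 0.32 and the desaturase SCD by 0.29 (log2).

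Mitosis and chromosome segregation genes fell in 17 of 29 tested cases and rose in none, with a median of -0.15, against 0.07 for 10 µM over the lower doses, and 13 were last-step genes. HMMR, a spindle protein, averaged 17.7 ± 1.16 CPM at 100 µM and 25.2 ± 3.24 CPM at 10 µM. CENPF, of the kinetochore, had 306, 319 and 302 CPM at 100 µM, against 384, 421 and 372 CPM at 10 µM. CCNB1, the mitotic cyclin, fell by 0.21 (log2). Of 32 DNA replication genes 5 rose, GINS3 by 0.24 (log2), none fell, and the median was 0.05. The 15.6% that passed were all higher, against 8.39% of all genes tested that were higher and 18.6% that passed in either direction. Of 19 G1 regulators 3 rose and 4 fell, among the falls the inhibitor CDKN2B at 28.9 ± 2.1 CPM at 100 µM and 40.8 ± 0.99 CPM at 10 µM. HIST1H1C, HIST1H2AC and HIST1H2BK rose, 3 of 13 tested histone genes, by 0.42 to 0.44 (log2). Replication-dependent histone transcripts mostly lack a poly(A) tail and resemble each other, and these libraries were selected on poly(dT), so their counts are uncertain.

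**Figure D5:**
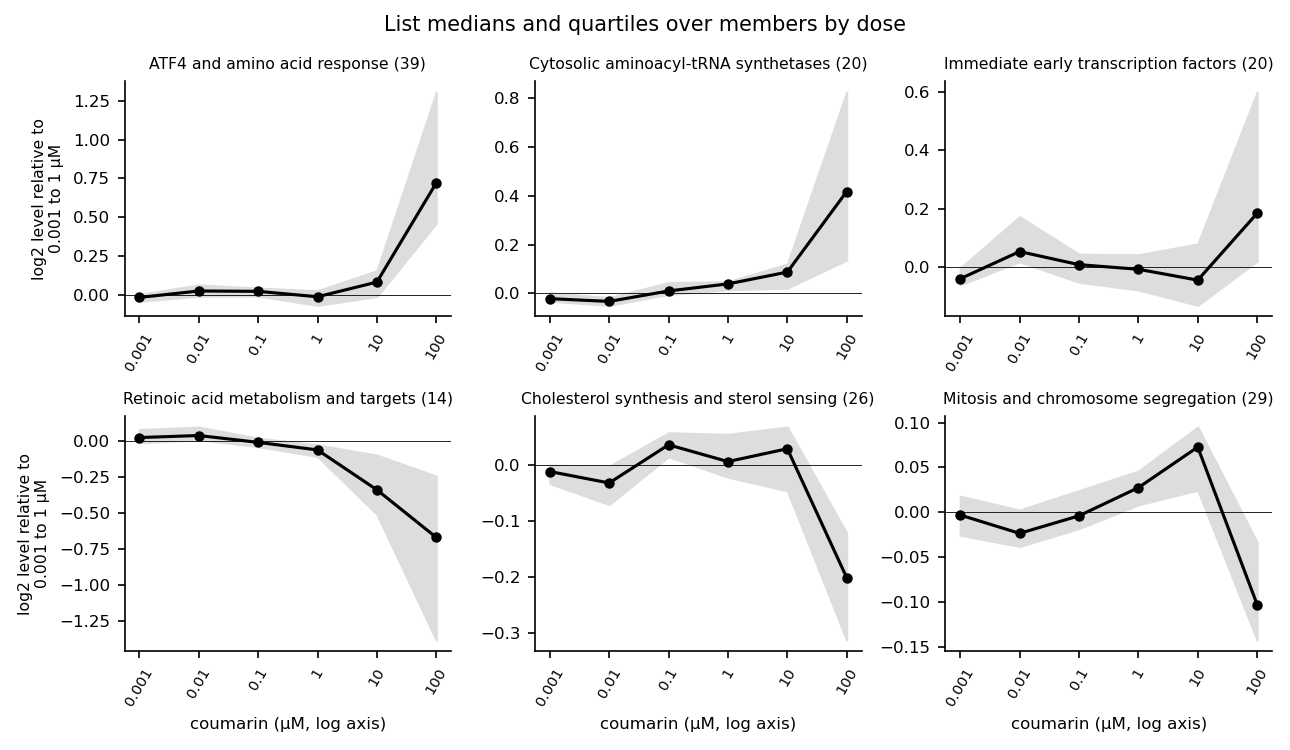
Median (line) and quartiles (band) over tested members of the log2 level relative to the mean of 0.001 to 1 µM, at 6 doses of coumarin in µM on a log axis, for selected lists. The ATF4 list stays within 0.03 of 0 up to 1 µM, lies at 0.08 at 10 µM and at 0.72 at 100 µM.

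Genes that turned at 10 µM give 45 cases in which the 10 µM libraries lie to one side of both the higher and the lower doses. Because the 10 µM libraries enter both differences with opposite signs, chance in them alone can give such a pattern. Of the 45, 32 were higher and 13 lower at 100 µM, and 11 passed between 100 µM and the lower doses, all on the side of the last step. NXPH4, a neurexophilin, averaged 29.7 ± 1.64 CPM at 100 µM, 20.6 ± 1.81 CPM at 10 µM and 23.6 CPM at 1 µM, with a difference of 0.15 (log2) between 100 µM and the lower doses (adjusted p = 0.037). NR4A1, an immediate early nuclear receptor, averaged 33.1 ± 0.585 CPM at 100 µM and 23.6 ± 2.03 CPM at 10 µM, CDC42EP1, a CDC42 effector, 89.6 ± 2.88 CPM at 100 µM and 68.1 ± 2.75 CPM at 10 µM, and both were higher at 100 µM than at the lower doses, by 0.28 and 0.24. MBD6 and the splicing factor SF1 did not pass that comparison, with differences of 0.05 and 0.07. Turning the other way, INSIG1, IDI1 and ACAT2, which joins acetyl-CoA units, SPAG5, a spindle protein, and XAGE2, a cancer-testis gene, lay above the lower doses at 10 µM by 0.11 to 0.23 and below them at 100 µM by 0.13 to 0.42. With 1 µM alone in place of the lower doses, 0 genes turned, and without 10 µM replicate 3 there were 93.

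Of 16 NF-kB and inflammatory genes 6 fell and none rose, BIRC3, an inhibitor of apoptosis, with 30.5, 31.7 and 29.7 CPM at 100 µM, against 44.6, 46.7 and 40.4 CPM at 10 µM, and TNFAIP2 fell 1.44-fold. Of 23 interferon-induced genes 3 (13.04%) fell and none rose, close to the 10.2% of all genes tested that were lower. IFIT1, which binds foreign RNA, averaged 5.22 ± 0.379 CPM at 100 µM and 8.32 ± 0.678 CPM at 10 µM. The call for GBP2, at less than 1 CPM, was lost when any 1 of 3 libraries (100 µM replicate 1 or 3, 10 µM replicate 1) was left out. Of 9 MHC class I genes 1 rose and 2 fell. Leukocyte markers summed to 2.87 to 4.43 CPM at 100 µM and 3.94 to 4.53 CPM at 10 µM, with CD3E at 0, and their part in these falls was not tested.

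Genes of growth factor signalling changed in both directions. On the insulin-like growth factor list 2 of 11 rose, GRB10 among them, and 5 fell. IGFBP3, a binding protein, had 726, 750 and 669 CPM at 100 µM, against 1335, 1163 and 1190 CPM at 10 µM, and IGFBP1 averaged 1.12 ± 0.398 CPM at 100 µM and 2.98 ± 0.568 CPM at 10 µM. IGFBP6 fell 1.53-fold and the receptor IGF1R 1.27-fold. IGFBP3, IGFBP6 and IGFBP1 had already fallen at 10 µM against the lower doses, with log2 differences of -0.25, -0.25 and -0.45. Their last step was larger, with adjusted p of 0.000178, 0.0184 and 0.0358 for the difference between steps. The list's 2 last-step genes were GRB10 and IGF1R. Of 18 genes of the YAP and TGF-beta response 4 rose and 8 fell, and 7 moved the same way at both steps. TGFBI, a matrix protein, had 53.1, 53.4 and 53.6 CPM at 100 µM, against 71.9, 73.6 and 70.5 CPM at 10 µM, after a fall of 0.30 (log2) at 10 µM, while ID2, a target of BMP signals, rose 1.48-fold. On the ERK feedback list 3 of 18 rose and 5 fell, with IER3 at 66.4 ± 2.17 CPM at 100 µM and 113 ± 5.2 CPM at 10 µM.

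Of 25 collagen and matrix genes 2 rose, DDR2 and COL1A1, and 12 fell. On this list 4 genes moved the same way at both steps and 2 were last-step genes. COL3A1 had 952, 954 and 926 CPM at 100 µM, against 1109, 1213 and 1168 CPM at 10 µM. It had already fallen at 10 µM against the lower doses (log2 difference -0.15), and the difference between steps did not pass (adjusted p = 0.186). FAP, a protease of activated fibroblasts, averaged 4.67 ± 0.582 CPM at 100 µM and 9.13 ± 1.2 CPM at 10 µM, and PDGFRB, a receptor of mesenchymal cells, 20 ± 1.29 CPM at 100 µM and 33.3 ± 1.49 CPM at 10 µM. The 9 fibroblast markers summed to 1061 to 1098 CPM at 100 µM and 1250 to 1360 CPM at 10 µM, with COL1A2 and PDGFRA at 0 in all 6 libraries. COL3A1 made up most of that sum, with means of 944 CPM at 100 µM and 1163 CPM at 10 µM. COL1A1, which rose, averaged 113 CPM at 100 µM and 102 CPM at 10 µM. Both are also on the matrix list, so the sum is not a separate measure of fibroblasts. The part of such cells in the lower matrix genes was not tested. The 8 endothelial markers summed to 3.40 to 4.26 CPM at 100 µM and 3.59 to 4.71 CPM at 10 µM, mostly from ERG and EGFL7. Of 3 that were tested none rose and 1 fell, CDH5, averaging 0.0993 CPM at 100 µM and 0.355 CPM at 10 µM. The list of keratins and epithelial markers also holds the mesenchymal genes SNAI2, ZEB1, VIM and CDH2. Of its 20 tested members 3 rose, SNAI2, KRT7 and CLDN1, and 8 fell, 5 of them the same way at both steps. KRT8 had 1834, 1755 and 1745 CPM at 100 µM, against 2433, 2426 and 2512 CPM at 10 µM, and its partner KRT18 averaged 810 ± 15.5 CPM at 100 µM and 1134 ± 47 CPM at 10 µM. Both have processed pseudogenes, which leaves their counts uncertain.

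Of 28 glycolysis and hypoxia genes 1 rose, VEGFA, by 0.31 (log2), and 3 fell, the hexokinase HK1 by 0.31, ALDOC by 0.25 and PGAM1 by 0.13, a call lost without 10 µM replicate 1. These 14.3% lie below the 18.6% of all genes tested that passed. On the tricarboxylic acid cycle list 2 of 25 rose and 8 fell, a larger share than the 18.6% of all genes that passed. PDHB, of pyruvate dehydrogenase, fell 1.28-fold and OGDH, of oxoglutarate dehydrogenase, 1.24-fold. Of 30 nuclear respiratory chain subunits 1 (3.33%) rose, CYCS, and none fell. The share of counts on the mitochondrial genome, given above, overlapped between the 2 doses.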

How the data were processed

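Messenger RNA was selected on poly(dT) beads, per the labels' protocols. The raw counts per gene were deposited by the authors as whole numbers. FPKM, deposited beside them and computed by the authors from gene length and a library total, served as an alternative. The submitters' processing notes name HISAT2, DESeq2 and GRCh38, with no version. Counter and strand setting: not given in the sources used here. Each of the 58735 identifiers was present in GENCODE 29.

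The test was run with edgeR 4.0.16 under R 4.3.3. Genes were kept by filterByExpr on the dose groups (16522 genes, 12577 of them protein-coding), libraries were scaled by TMM, and a robust quasi-likelihood fit was made on the 18 treated libraries with 1 coefficient per dose and 12 residual degrees of freedom. The contrasts were 100 minus 10 µM, 10 µM minus the mean of 0.001 to 1 µM, the difference between these 2, and 100 µM minus the mean of 0.001 to 1 µM. P-values were two-sided and adjusted by Benjamini-Hochberg over all genes tested, with a threshold of 0.05. The words rose, fell, higher and lower refer to genes that passed it. Log2 differences and their standard errors (SE) come from this fit, and CPM use TMM-scaled totals.

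The comparison, the gene lists, the markers and the rule for naming genes were chosen with earlier results of these data known. Lists are described by counts and medians, to be read against the shares and the median over all genes tested. Named genes are the 15 largest rises and 15 largest falls among protein-coding genes of at least 1 CPM without overlap between the doses, the 8 last-step genes each way with the smallest p for the difference between steps, 5 each way moving the same way or turning, 3 noncoding each way, up to 4 per list by p, and a fixed set (AHR, CYP and stress genes). FGF21 entered through its promoter. Motifs were searched in RefSeq promoter windows (GRCh38.p14), which matched 157 of 214 named genes.

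Same-numbered libraries at 100 and 10 µM deviated from their dose means with correlations of -0.00636, 0.0138 and -0.0102. These 3 values show no sign of pairing by replicate number but are too few to exclude it. The labels do not say how the replicates were kept apart, and p-values measure the spread between these libraries. Replicates of a dose differed by more than counting noise. The alternatives were RLE and upper-quartile scaling, no filter or 1 CPM in 3 libraries, 6 or 21 libraries in the fit, a replicate block, DESeq2 1.42.0, limma 3.58.1 on log2 of FPKM plus 1 or 0.1, an adjusted p of 0.01, prior count 0.5, 1 µM alone as lower dose, other bounds on the 10 µM difference and leaving out each library. The scripts were tested on simulated data.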

Additional observations from a re-analysis of the deposited data

How the results depend on the processing

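The number of ATF4 list members that rose stayed at 31 to 33 under each setting tried. Between 100 and 10 µM, RLE scaling, upper-quartile scaling, no filter, a 1 CPM filter, 6 or 21 libraries, DESeq2 and limma on FPKM gave 2701 to 3133 genes, of which 2557 to 3053 were among the 3074 with the same direction. An adjusted p of 0.01 gave 1871 genes (772 higher, 1099 lower), 357 last-step genes, 83 moving the same way and 13 turning. Limma on log2 of FPKM plus 1 left 29 turning genes, and FPKM plus 0.1 left 28 turning and 127 moving the same way. With 1 µM alone as the lower dose 487 last-step genes, 20 moving the same way and 0 turning remained in number. Leaving out each of the 18 libraries in turn gave 2220 to 3340 changed genes, 969 to 1521 higher, 1251 to 1819 lower, 325 to 779 last-step, 74 to 216 moving the same way and 10 to 93 turning. Besides 10 µM replicates 1 and 3, the count moved by over 1.5 times without 10 µM replicate 2 (116 moving the same way), without 100 µM replicate 2 (27 turning) and without 0.01 µM replicate 3 (29 turning). The cause was not tested. With the replicate number as a block 2985 genes changed (1347 higher, 1638 lower), with 648 last-step, 169 moving the same way and 40 turning, and same-numbered libraries did not deviate together. Over 205 named genes and the 18 fits that left out 1 library, the verdict was unchanged in 3640 pairs of gene and fit. These include genes that passed in neither fit. In 41 pairs the gene was no longer past the threshold, in 9 it was newly past it and in 0 its direction reversed. Most of these genes were named by their values in the same libraries. Genes of a few counts, such as FGF21, UNC5B and CYP1A1, are limited by depth.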
